A study of Mus musculus with 4 samples.

Results

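The promoters of the cytosolic ribosomal proteins were 83 of the 26354 promoters in the table of H3K9me2 (histone H3 lysine 9 dimethylation) ChIP-seq of mouse vascular smooth muscle cells (VSMCs). They were chosen by name alone, as the genes whose symbol is Rpl or Rps followed by a number, with or without a closing a, x or l, together with Rplp0, Rplp1, Rplp2 and Rpsa. Ribosomal S6 kinases and pseudogenes were left out. The material was aortic media of male C57Bl/6J mice, stripped by hand of fat, adventitia and endothelium and fixed directly after dissection. The animals carried no stated transgene or treatment, and their age and the number per library are not given in the sources used here. The 2 groups compared had 1 library each from the experiments numbered v102 and v134 (n = 2 libraries per group), namely chromatin immunoprecipitated with an antibody to H3K9me2 and the associated input chromatin. The table holds no expression values, so the cell type was not checked by marker genes, and the share of cells that carry the mark cannot be told apart from the amount of the mark per cell.

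The ribosome has a large subunit, where peptide bonds are made, and a small subunit, where messenger RNA is decoded. Its proteins are among the most strongly expressed housekeeping genes in nearly every cell, and most are encoded by a single active gene that starts within a stretch of pyrimidines. H3K9me2 is placed by the methyltransferases EHMT2 and EHMT1 and is known as a mark of silent genes in euchromatin. A few ribosomal proteins have a paralogue, a second gene for a closely related protein, and several of these are used mainly in one tissue such as testis or muscle. Ribosomal protein genes have also left many processed pseudogenes in the genome, which are copies made from messenger RNA without the promoter of the parent gene.

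The start sites of members at both ends of the H3K9me2 range are shown to let the high and low promoters be compared by eye. Each sequence runs 5′ to 3′ from 60 bases before to 20 bases from the RefSeq start on GRCm38.p6, and capitals mark the longest run of pyrimidines that reaches within 5 bases of the start. The first 7 promoters were above input, and the last 3 had 0 ChIP reads in both experiments.
Rpl10l, chr12:66284382-66284461, minus strand: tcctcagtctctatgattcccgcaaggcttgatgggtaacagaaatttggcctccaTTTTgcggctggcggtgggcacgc
Rpl22, chr4:152325666-152325745, plus strand: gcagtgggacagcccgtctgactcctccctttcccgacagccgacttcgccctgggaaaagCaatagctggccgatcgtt
Rps7, chr12:28635934-28636013, minus strand: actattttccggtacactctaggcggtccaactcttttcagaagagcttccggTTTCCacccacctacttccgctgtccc
Rpl34, chr3:130730379-130730458, minus strand: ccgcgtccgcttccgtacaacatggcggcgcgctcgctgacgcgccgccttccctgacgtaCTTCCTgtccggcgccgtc
Rps26, chr10:128626487-128626566, minus strand: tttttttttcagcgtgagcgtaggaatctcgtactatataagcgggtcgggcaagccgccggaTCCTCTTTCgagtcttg
Rpl39l, chr16:10170168-10170247, plus strand: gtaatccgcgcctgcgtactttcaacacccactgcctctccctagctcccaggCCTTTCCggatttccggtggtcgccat
Rps10, chr17:27635225-27635304, minus strand: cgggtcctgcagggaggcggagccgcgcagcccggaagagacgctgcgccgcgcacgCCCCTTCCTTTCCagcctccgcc
Rpl7a, chr2:26910747-26910826, plus strand: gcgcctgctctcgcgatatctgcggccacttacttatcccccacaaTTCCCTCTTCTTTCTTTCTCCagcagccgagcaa
Rps25, chr9:44407654-44407733, plus strand: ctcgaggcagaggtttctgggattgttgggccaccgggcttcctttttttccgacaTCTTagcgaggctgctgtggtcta
Rpl36a, chrX:134585594-134585673, plus strand: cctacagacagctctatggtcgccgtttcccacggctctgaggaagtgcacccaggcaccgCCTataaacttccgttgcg
The marked run was 1 to 13 bases long in the 7 promoters above input (1 in Rpl22, 13 in Rps10) and 3 to 21 bases long in the last 3 (3 in Rpl36a, 21 in Rpl7a). A run of 6 or more bases was found in 4 of the 7 members above input and in 8 of the 17 members below input with a RefSeq promoter. RefSeq promoters were matched for 62 of the 83 members, and Rpl7 has no entry in that table. The RefSeq start of Rps25 lies 575 bases from the GENCODE gene start used for its window, and that of Rps10 lies 1425 bases away. The window reaches 1 kb to each side, so the Rps10 sequence may not lie where its reads were counted. Rps10 is one of the 4 members above input with a run of 6 or more bases.

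Within 5 bases of the start, 30 of these 62 promoters (48.4%) had a pyrimidine run of 6 or more bases, against 20.4% of the 15102 promoters of the table with a RefSeq sequence. A C at the start base was found in 20 members (32.3%) against 14% of all. In the 300 bases from 250 before to 50 after the start, with both strands searched, CCGGAAG (the core of the motif of ETS factors) was found in 24 members (38.7%) against 12.1% of all promoters, and AAGATGG (the core of the YY1 motif) in 9 members (14.5%) against 6.52%. The E-box CACGTG was found in 5 members (8.06%) against 8.23%, and the TATA box letters TATAAA in 6 members (9.68%) against 12.4%. The RefSeq starts of Rps10, Rps24, Rpl18 and Rps2 lie 1425, 3553, 2614 and 1947 bases from their GENCODE gene starts. Their sequences may thus lie outside the windows in which reads were counted. H3K9me2 was compared between members with and without the 2 commonest features. The median H3K9me2/input ratio was 0.102 in the 30 members with the pyrimidine run and 0.119 in the 32 without it, and 0.103 in the 24 with CCGGAAG and 0.119 in the 38 without it. The order was reversed by the mean log2 ratio that is used for ranking below. Its median percentile among all promoters was 36.0 with the run and 33.7 without it, and 36.6 with CCGGAAG and 33.5 without it. The median ratios differ by little beside the range of 0 to 1.00 over the members, and the differences were not tested.

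The table gave few reads per promoter. The totals over all promoters for ChIP were 162233 in v102 and 229605 in v134, and those for input were 619100 and 1084349, and the median promoter held 4 and 5 ChIP reads and 20 and 37 input reads. At the members the input reads ranged from 8 to 36 in v102 and from 16 to 80 in v134, and the ChIP reads reached at most 18 and 36. No ChIP read was counted at 12 of the 83 members in v102, at 7 in v134 and at 4 in both experiments. Over all promoters, 1.98% had none in both experiments. The H3K9me2/input ratio used here is the deposited one, summed ChIP reads over summed input reads, which is not scaled for library size and had a median of 0.162 and a 75th percentile of 0.343 over all promoters.

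As a group, the ribosomal protein promoters carried less H3K9me2 than the rest of the table, with a small number of members far above the others. The 83 members together had 325 and 612 ChIP reads against 1884 and 3497 input reads, a pooled ratio of 0.173 in v102 and 0.175 in v134 (0.174 over both, 95% Wilson interval 0.162 to 0.187). Divided by the pooled ratio of all other promoters outside the mitochondrial genome, this came to 0.564 in v102 and 0.765 in v134, or 0.665 ± 0.142 (SD, n = 2 experiments). The members were therefore below the other promoters in both experiments, by amounts that differed between them. Wilson intervals, and the Fisher's exact tests given for pairs, cover counting error only.

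The median member had a ratio of 0.117, with quartiles at 0.0646 and 0.247 and extremes of 0 and 1.00, and 51 of the 83 lay at or below the median of all promoters. For ranking, 1 read was added to every count as a pseudocount, ChIP was divided by input after scaling by library totals, and the log2 values of the 2 experiments were averaged. Without the pseudocount, a value of 0 would mean that a promoter holds the same share of ChIP reads as of input reads. The added read raises the value where ChIP reads are fewer than input reads, most at promoters with few reads. The sign of values near 0 is therefore approximate. The log2 ratio was below 0 in both experiments at 46 members, above 0 in both at 19 and of opposite sign at 18. The median of the mean log2 ratio was -0.80 over the members and -0.31 over all promoters. Most promoters of the whole table thus also had a mean below 0, and the share with each sign was not counted. The median percentile of the members among all promoters was 35.7, and it was 33.2 in v102 alone and 45.8 in v134 alone.

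In all, 9 members (10.8%) were in the top quartile of the mean log2 ratio, which holds 25% of all promoters, and 27 were in the bottom quartile, which holds the same share. Only 4 of the 83 members, Rpl10l, Rpl22, Rps7 and Rpl39, reached the top quartile in v102 as well as in v134. Over all promoters, 17.6% did so. Across the 83 members Spearman's rho between the log2 ratios of the 2 experiments was 0.549, against 0.689 over all promoters, as a description over promoters of shared libraries.

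**Figure D1:**
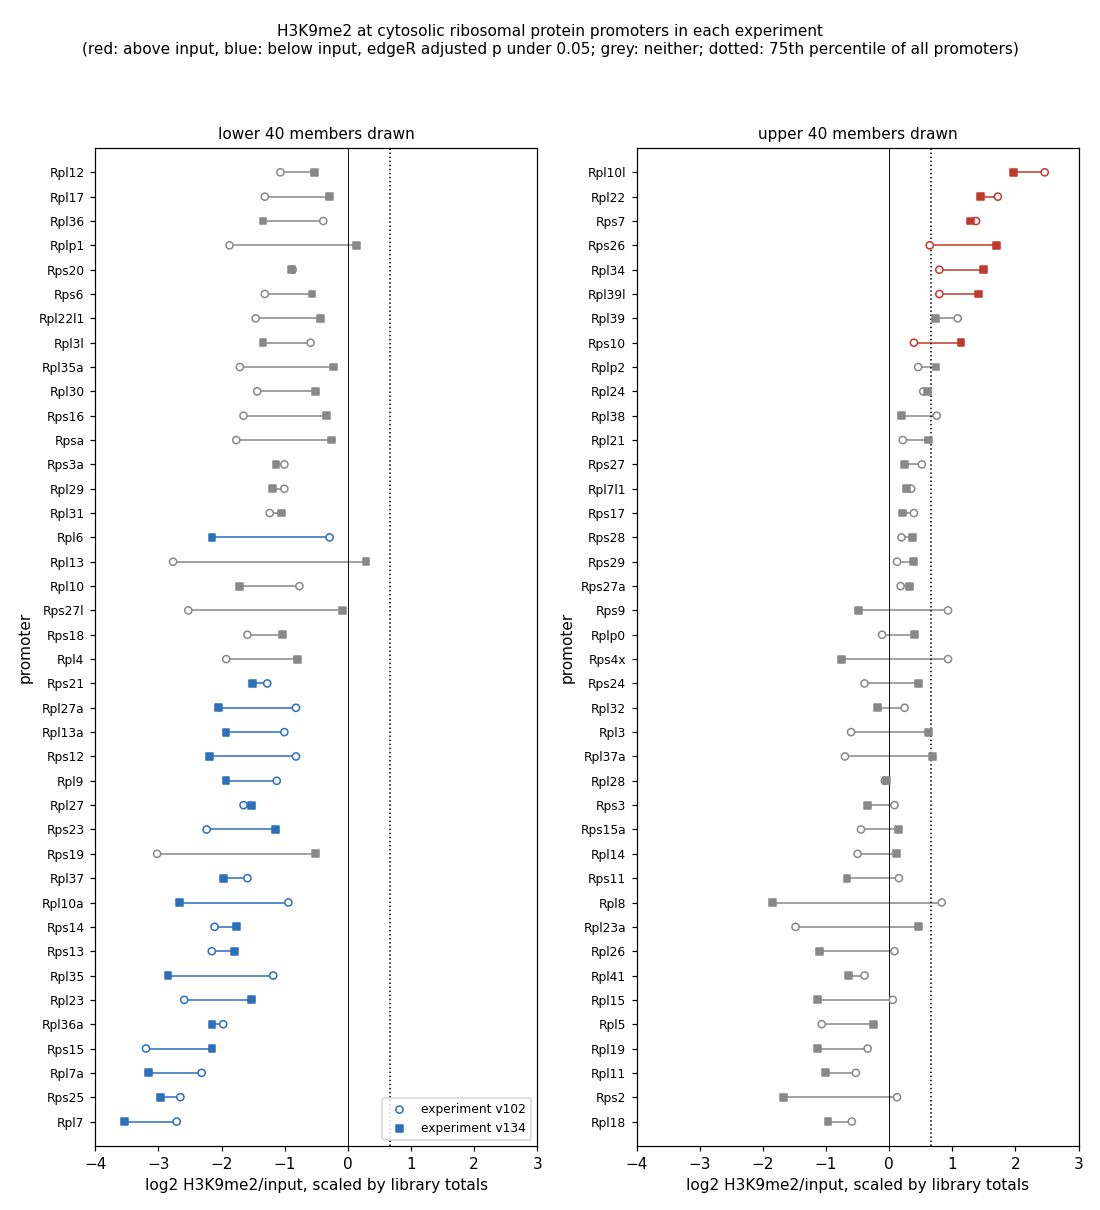
H3K9me2 at 80 of the 83 members, sorted by the mean of the 2 experiments. The x axis is the log2 of ChIP over input after scaling by library totals (pseudocount 1 read), open circles are v102, filled squares are v134, the line joins them, red and blue mark members above and below input, and the dotted line is the 75th percentile of all promoters. Rpl10l stands at the top at 2.46 and 1.96 and Rpl7 at the bottom at -2.71 and -3.54.

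Each ChIP was then compared with input by edgeR's quasi-likelihood test over all 26354 promoters. By this test, 7 members (8.43%) were above input at an adjusted p under 0.05, where 18.6% of all promoters were, and 21 members (25.3%) were below input, where 17.0% of all promoters were. The other 55 did not pass the test in either direction. With the experiment as a block, so that a ChIP was set against the input of its own experiment, the same 7 members were above (15.8% of all promoters) and 9 of the 21 were below (8.3% of all promoters). DESeq2 called 3 members, Rpl10l, Rpl22 and Rps7, above input (11.5% of all promoters) and 0 below (0.11% of all promoters). At an unadjusted DESeq2 p under 0.05, 10 members were below, and the share of all promoters there was not counted. The edgeR test rests on 2 libraries against 2, and its p-values measure the spread between these libraries.

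**Figure D2:**
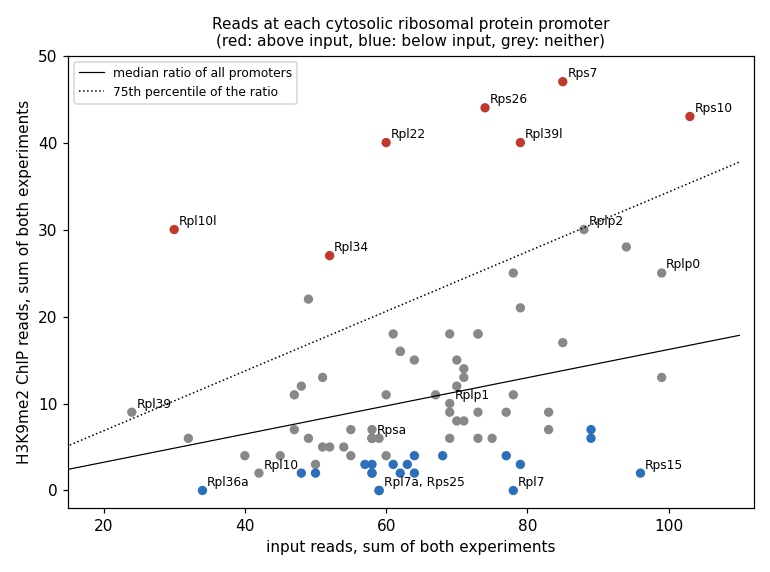
Summed H3K9me2 ChIP reads (y axis) against summed input reads (x axis) at the 83 members. Red points are members above input, blue points members below input and grey points neither by the edgeR test, and the lines give the median ratio (0.162) and the 75th percentile (0.343) of all promoters. The 7 red points hold 27 to 47 ChIP reads, and the 21 blue points hold 0 to 7.

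The large subunit promoters were low when summed, with members on both sides of the median. The 46 large subunit and stalk members, paralogues left out, had a pooled ratio of 0.153 (95% Wilson interval 0.139 to 0.169). Of these, 13 (28.3%) were below input, 2 (4.35%) above and the rest neither, against 17.0% below and 18.6% above over all promoters. A ratio at or below the median of all promoters was found at 32 of them. Rpl22 (chr4:152325742-152334071), a protein on the outer surface of the large subunit that is known for its role in T-cell development, had 18 and 22 ChIP reads in v102 and v134 against 21 and 39 input reads. Its ratio was 0.667 (0.448 to 0.992), 4.11 times the median promoter, and the fitted log2 fold change over input was 1.68 ± 0.39 (SE; edgeR adjusted p = 0.000199). Both experiments placed it high, at the 90.7th percentile in v102 and the 88.8th in v134. It was above input in every alternative test run, with an adjusted p between 1.9e-05 and 0.016.

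Rpl34 (chr3:130726831-130730398), the other large subunit member above input, had 9 and 18 ChIP reads against 21 and 31 input reads. The ratio was 0.519 (0.328 to 0.823) and the log2 fold change 1.29 ± 0.44 (SE; edgeR adjusted p = 0.0133). It was higher in v134, at the 89.6th percentile, than in v102, at the 74.1st, and the test was not passed in 4 of 10 alternatives, which were DESeq2 (adjusted p = 0.120) and edgeR without the ChIP library of v134 (0.220), without the input library of v102 (0.0989) and without that of v134 (0.226). Rpl39, which lines the exit tunnel for the new peptide, had 4 and 5 ChIP reads against 8 and 16 input reads, the fewest summed input reads of any member. Its ratio of 0.375 stood in the top quartile in both experiments, but with so few reads a difference from input was not detectable (edgeR adjusted p = 0.322).

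At the other end, no ChIP read was counted at Rpl7, Rpl7a and Rpl36a of the large subunit in either experiment. Rpl7 (chr1:16101295-16104662) had 24 and 54 input reads, so that a floor of 3 reads puts its ratio at no more than 0.0385, at least 4.22-fold lower than the median promoter (edgeR adjusted p = 4.25e-05). Rpl7a (chr2:26910764-26913318), a large subunit protein, had 18 and 41 input reads and was at least 3.19-fold lower (edgeR adjusted p = 0.000557). Rpl36a (chrX:134585654-134588062) had 14 and 20 input reads and was at least 1.84-fold lower (edgeR adjusted p = 0.00819), a call that was lost with the experiment as a block (adjusted p = 0.0511). All 3 were at 0 in both experiments, and the depth of input sets how low each can be said to be. The windows of Rpl7 and Rpl7a each overlap that of a neighboring gene whose ratio was also 0, so these values do not belong to the ribosomal protein gene alone.

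The stalk is the flexible arm of the large subunit that recruits elongation factors. Rplp0, its base, had 7 and 18 ChIP reads against 32 and 67 input reads, a ratio of 0.253. Rplp1 had 1 and 9 against 27 and 42 (ratio 0.145), and Rplp2 had 8 and 22 against 24 and 64 (ratio 0.341). None of the 3 differed from input by edgeR (adjusted p = 0.606, 0.441 and 0.134). Rplp2 was the member just under the top quartile, at the 73.7th percentile, with Rps10 just inside it at the 77.2nd. The Rplp1 log2 ratio was -1.88 in v102 and 0.14 in v134, so its position differed between the experiments.

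The 31 small subunit members had a pooled ratio of 0.185 (95% Wilson interval 0.166 to 0.207). Of these, 8 (25.8%) were below input and 3 (9.68%) above, against 17.0% and 18.6% of all promoters. Rps7 (chr12:28630854-28635953), which is needed to mature the RNA of the small subunit, had 16 and 31 ChIP reads against 24 and 61 input reads. Its ratio was 0.553 (0.388 to 0.788) and its log2 fold change 1.42 ± 0.36 (SE; edgeR adjusted p = 0.000726). The log2 ratios of the 2 experiments were 1.38 and 1.29, nearly the same, at the 85.5th and 86.3rd percentiles. Without the ChIP library of v134 the edgeR adjusted p was 0.0857.

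Rps26 (chr10:128624534-128626747), whose protein lies at the exit channel for messenger RNA, had 8 and 36 ChIP reads against 21 and 53 input reads. The ratio was 0.595 (0.410 to 0.862) and the log2 fold change 1.5 ± 0.37 (SE; edgeR adjusted p = 0.000538). Most of this came from v134, where it stood at the 92.5th percentile against the 70.3rd in v102, and without the ChIP library of v134 it was not above input (edgeR adjusted p = 0.713). DESeq2 did not call it either (adjusted p = 0.0673). Rps10 (chr17:27630418-27636669) had 10 and 33 ChIP reads against 31 and 72 input reads, a ratio of 0.417 (0.293 to 0.595) and a log2 fold change of 1.00 ± 0.36 (SE; edgeR adjusted p = 0.0210). It too was higher in v134 (83.9th percentile) than in v102 (63.9th), and the RefSeq start lies 1425 bases from the GENCODE gene start used for its position. The window of Rps10 overlaps that of another gene, so its value may not belong to the ribosomal protein gene alone. The Rps10 call was lost in 5 of 10 alternatives, which were scaling by library totals (edgeR adjusted p = 0.0586), DESeq2 (0.200), and edgeR without the ChIP library of v134 (0.838), without the input library of v102 (0.184) and without that of v134 (0.0780).

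The lowest small subunit promoters were those of Rps25 and Rps15. Rps25 (chr9:44407139-44410427), which some viral messenger RNAs need in order to start translation, had 0 ChIP reads in both experiments against 23 and 36 input reads, at least 3.19-fold lower than the median promoter (edgeR adjusted p = 0.000499). The window of Rps25 overlaps that of a neighboring gene. Rps15 (chr10:80292453-80294114), which lies near the decoding site, had 0 and 2 ChIP reads against 34 and 62 input reads, a ratio of 0.0208 (0.00565 to 0.0769; edgeR adjusted p = 0.000264). Both stayed below input with the experiment as a block, at adjusted p of 0.00904 and 0.00473. Rpsa, a small subunit protein also known as the laminin receptor precursor, had 1 and 5 ChIP reads against 25 and 33 input reads, a ratio of 0.103 that was not called (edgeR adjusted p = 0.208).

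Beside Rpl7, Rpl7a, Rpl36a, Rps25 and Rps15, the members below input included Rpl6, Rpl9, Rpl10a, Rpl13a, Rpl23, Rpl27, Rpl27a, Rpl35, Rpl37, Rps12, Rps13, Rps14, Rps21 and Rps23. In the 17 with any ChIP read the fitted log2 fold change ran from -3.27 to -1.36, and the ratio over all 21 from 0 to 0.0787. The 9 that were also below input with the block were Rpl7, Rpl7a, Rpl9, Rpl23, Rps13, Rps14, Rps15, Rps21 and Rps25. They were thus spread over both subunits. Windows of 17 members overlap that of a small nucleolar RNA gene, and these had a pooled ratio of 0.137, with 7 (41.2%) below input and 0 above. The 48 members whose window overlaps no other had a pooled ratio of 0.206, with 7 (14.6%) below and 6 (12.5%) above. Over all promoters these shares were 17.0% and 18.6%.

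The paralogues stood higher than the rest of the members when their reads were summed. The 6 of them had 35 and 63 ChIP reads against 120 and 205 input reads, a pooled ratio of 0.302 (95% Wilson interval 0.241 to 0.378), which was 0.292 in v102 and 0.307 in v134. The 77 other members had a pooled ratio of 0.166 (0.154 to 0.179), which was 0.633 ± 0.135 (SD, n = 2 experiments) of all other promoters. Of the 6, 2 (33.3%) were above input and 0 below, against 18.6% and 17.0% of all promoters. The 6 were not alike, and most of their ChIP reads came from Rpl10l (30) and Rpl39l (40). Rpl3l, Rpl22l1 and Rps27l had ratios of 0.0870, 0.0980 and 0.0889, below the pooled ratio of the other members, and Rpl7l1 had 0.255, above it.

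Rpl10l (chr12:66283379-66284401), an intronless autosomal copy of the X-linked Rpl10 that is used in testis while the X chromosome is silent in meiosis, had the highest ratio of any member. It had 12 and 18 ChIP reads against 8 and 22 input reads, a ratio of 1.00 (0.606 to 1.65) and a log2 fold change of 2.26 ± 0.47 (SE; edgeR adjusted p = 2.32e-05). It stood at the 97.6th percentile in v102 and the 95.6th in v134. Rpl10 itself had 1 and 1 ChIP reads against 12 and 30 input reads, a ratio of 0.0476 (edgeR adjusted p = 0.0712). The ratio was 21.0 times higher at Rpl10l than at Rpl10 (Fisher's exact test, two-sided, p = 2.70e-07, adjusted over the 6 pairs 1.62e-06), and the 2 experiments had the same order.

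Rpl22 and Rpl22l1 differed in the opposite direction. Rpl22l1, the paralogue of Rpl22, had 1 and 4 ChIP reads against 20 and 31 input reads, a ratio of 0.0980, which was 0.147 of that at Rpl22 (Fisher's exact test, adjusted p = 6.97e-05). Here it was the widely used gene that carried the higher ratio and the paralogue that was low. Rpl7l1, which acts in assembly of the large subunit, had 5 and 8 ChIP reads against 17 and 34 input reads, a ratio of 0.255 that was at least 6.63-fold higher than at Rpl7 (Fisher's exact test, adjusted p = 4.53e-05). In each of these pairs the order was the same in both experiments.

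For the other 3 pairs no difference passed the test. Rpl3l, the muscle form of Rpl3, had 3 and 3 ChIP reads against 22 and 47 input reads (ratio 0.0870), and Rpl3, which lies at the peptidyl transferase center, had 4 and 14 against 28 and 45 (ratio 0.247; Fisher's exact test, p = 0.0447, adjusted p = 0.0671). Rps27l had 0 and 4 against 21 and 24 (ratio 0.0889) and Rps27 had 5 and 11 against 15 and 47 (ratio 0.258; Fisher's exact test, adjusted p = 0.0969). Rpl39l (chr16:10170226-10174911), a testis form of Rpl39, was itself above input, with 14 and 26 ChIP reads against 32 and 47 input reads, a ratio of 0.506 (0.347 to 0.739) and a log2 fold change of 1.25 ± 0.38 (SE; edgeR adjusted p = 0.00533). It was not distinguishable from Rpl39 (Fisher's exact test, adjusted p = 0.535), and it lost its call by DESeq2 (adjusted p = 0.0875) and by edgeR without the ChIP library (0.144) or without the input library of v134 (0.128).

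**Figure D3:**
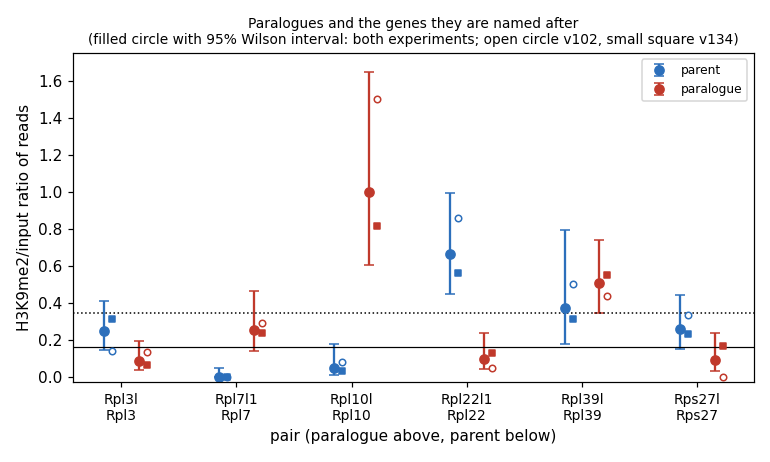
H3K9me2/input ratio (y axis) of each paralogue (red) and the gene it is named after (blue), with the 6 pairs along the x axis. Large filled circles are the ratio of reads summed over both experiments with its 95% Wilson interval, open circles are v102 and small squares v134, and the lines give the median (0.162) and the 75th percentile (0.343) of all promoters. Rpl10l lies far above Rpl10, and Rpl22 far above Rpl22l1.

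The 4 X-linked members had 9 and 8 ChIP reads in all against 43 and 89 input reads, a ratio of 0.209 in v102 and 0.0899 in v134 and of 0.129 (0.0781 to 0.212) over both. These were Rpl10, Rpl36a and Rpl39, given above, and Rps4x, the X-linked form of a small subunit protein, with 4 and 2 ChIP reads against 9 and 23 input reads (ratio 0.188, edgeR adjusted p = 0.897). In cells of males the X chromosome is present in 1 copy, and the 4 had a median of 10.5 and 21.5 input reads per promoter against 23.0 and 40.0 for all members. Their ratios ranged from 0 at Rpl36a to 0.375 at Rpl39.

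A further 3 genes of the cytosolic ribosome that the naming rule does not take were below input. Fau, which encodes a small subunit protein fused to a ubiquitin-like protein, had 4 and 0 ChIP reads against 20 and 49 input reads (ratio 0.0580, edgeR adjusted p = 0.0361). Gnb2l1, also called Rack1, a scaffold on the small subunit, had 1 and 5 against 31 and 49 (ratio 0.0750, edgeR adjusted p = 0.0451), and Rpl36al, an autosomal relative of Rpl36a, had 0 and 2 against 19 and 32 (ratio 0.0392, edgeR adjusted p = 0.0315). The 3 calls were lost with the experiment as a block.

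Genes with related tasks had ratios close to those of the members. The 76 mitochondrial ribosomal proteins had a pooled ratio of 0.185 (0.173 to 0.198), or 0.703 ± 0.183 (SD, n = 2 experiments) of all other promoters. Of these, 16 (21.1%) were below input and 5 (6.58%) above. The 68 translation factors had a pooled ratio of 0.134, or 0.527 ± 0.008 of all others, with 20 (29.4%) below and 2 (2.94%) above. The 62 ribosome biogenesis factors had a pooled ratio of 0.188, or 0.715 ± 0.190 of all others, with 13 (21.0%) below and 5 (8.06%) above. Over all promoters 17.0% were below input and 18.6% above. The highest were Mrps2 (0.839), Eif1 (0.579) and Ltv1 (0.790), and the lowest, each with 0 ChIP reads in both experiments, were Mrpl41, Eif3i and Noc4l.

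The 58 ribosomal protein pseudogenes in the table lay on the other side of the median. They had 569 and 996 ChIP reads against 946 and 2263 input reads, a pooled ratio of 0.488 (0.459 to 0.518), which was 1.97 times that of all other promoters in v102 and 1.93 times in v134. Their median percentile was 80.1, and 35 of the 58 (60.3%) were in the top quartile. By edgeR, 29 (50%) were above input and 3 (5.17%) below, against 18.6% and 17.0% of all promoters. The values ran from 0.0308 at Rpl31-ps17 to 1.48 at Rps24-ps2. The pseudogene windows had a median GC content of 43.9%, a median observed to expected CpG ratio of 0.297 and a median repeat share of 33.8%, against 52.2%, 0.676 and 16.1% at the members, and the part of these features in the difference was not tested.

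**Figure D4:**
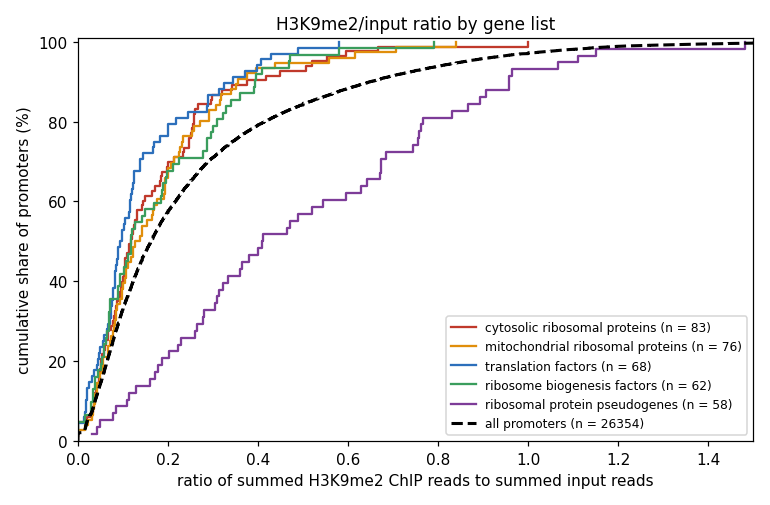
Cumulative share of promoters (y axis, percent) with an H3K9me2/input ratio up to the value on the x axis, for the cytosolic ribosomal proteins and 4 related gene lists (colored lines) and for all 26354 promoters (dashed black line). The cytosolic and mitochondrial ribosomal proteins, translation factors and biogenesis factors rise to the left of all promoters (median ratios 0.117, 0.133, 0.0954 and 0.118 against 0.162), and the pseudogenes lie to the right (0.410).

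Windows from 1 kb before to 1 kb after the GENCODE gene start could be drawn for 82 members. They held a median of 52.2% GC (44.6 to 61.5) against 50.9% over all promoters and a median CpG ratio of 0.676 against 0.440, and repeats covered a median of 16.1% against 13.9%. Over all 22299 promoters with a window the mean log2 ratio fell with GC content (Spearman's rho = -0.549) and with CpG ratio (rho = -0.519). Over the 82 members the same relations were weaker, with rho = -0.268 for GC content and -0.124 for CpG ratio, given as descriptions over promoters of the same libraries. The 9 members in the top quartile had a median GC content of 49.7% and the 27 in the bottom quartile 53.4%.

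When the trend with GC content over all promoters was removed, 15 members rather than 9 stood in the top quartile. Rpl22 was then at the 99.1st percentile, Rpl10l at the 98.4th, Rps7 at the 97.7th and Rpl34 at the 96th. Rpl3, Rplp2 and Rplp0 were among those that entered, at the 86.7th, 85.5th and 78.6th percentiles. The GC content of Rpl3 is that of a window 8462 bases from the start of its principal transcript, so its corrected position is uncertain. Not every member above input moved up, since Rps26 went from the 84.4th to the 81.4th percentile and Rpl39l from the 83.3rd to the 81.6th.

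**Figure D5:**
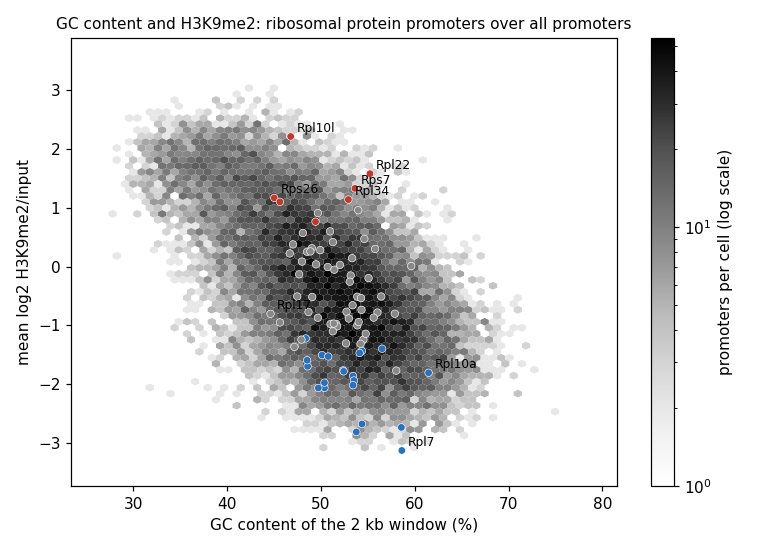
Mean log2 ratio of ChIP to input (y axis) against the GC content of the 2 kb window in percent (x axis), with all promoters as grey cells shaded by their number on a log scale and the 82 members as points (red above input, blue below input, grey neither). Rpl22, Rps7 and Rpl34 lie in the upper part of the grey cells at their GC content, and Rpl7 near the lower edge.

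Because ribosomal protein genes have many copies, words of 32 bases in the part of each window outside annotated repeats were looked up elsewhere in the genome. At the median member 5.21% of these words were also found elsewhere, against 0 at the median mitochondrial ribosomal protein. The share was 26.3% at Rpl10l, 9.52% at Rps26 and 7.89% at Rps7, and 0 at Rpl22, Rpl34, Rpl39l and Rps10. With repeats included, the share over the whole window was 28.1% at Rpl10l, 12.8% at Rps26, 11.9% at Rps10 and 9.24% at Rps7. It was 1.07% at Rpl34, 0.914% at Rpl22 and 0 at Rpl39l. Reads of Rpl10l, Rps26 and Rps7 may thus be shared with near-identical copies, and those of Rps10 with copies of its repeats. Their values are uncertain to that extent. Over the 82 members rho between the share outside repeats and the mean log2 ratio was 0.0627.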

How the data were processed

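The authors trimmed paired-end 75 bp reads (Trim Galore 0.4.2, Cutadapt 1.9.1, per the labels), aligned them to GRCm38 with Bowtie2 2.2.7 and deposited raw counts made with SeqMonk, of reads from 1 kb before to 1 kb after the start of transcription. Promoters with few input reads had been removed, and the lowest summed input left was 21. The deposited ratio is summed ChIP over summed input reads, with no scaling for library size. The annotation release, the start site chosen per gene and how duplicates were treated are not given in the sources used here. Positions, GC content and repeats were therefore taken from GENCODE vM21 by symbol (22299 symbols matched 1 gene; Rps3a did not), and start-site sequences from RefSeq (GRCm38.p6).

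Counts were tested with edgeR 4.0.16 (R 4.3.3; TMM, quasi-likelihood, Benjamini-Hochberg over all 26354 promoters, threshold 0.05), with DESeq2 1.42.0 as an alternative. The test was checked on simulated counts, with 50 promoters at each fold change. It called 78% of those at a fold change of 4 and 6% at 2. It called 0% at a fold change of 0.5 and 16% at 0.25, and 0.00765% of promoters without a change. In the simulation 26154 of the 26354 promoters had no change, and all were given the same spread between libraries. In the data many more promoters passed, 17.0% below and 18.6% above input, so the adjustment was less strict there. Among the members, log2 fold changes as small as 1.00 above and -1.36 below input were called. The simulated rates therefore do not give those of the data. Members called neither above nor below may still differ from input. The median log2 fold change over all promoters was -0.35 with TMM and -0.50 with library totals, so calls are relative to that scaling. The ChIP and input of an experiment are paired by the labels, and the correlation of their deviations from the group means was 0.0799. Paralogues and parents were compared by Fisher's exact test on summed reads. Members and gene lists were chosen with earlier results of these data known. Named were the members above input, those in the top quartile of both experiments, the 5 lowest and those with 0 ChIP reads, paralogues and their parents, stalk proteins and Rpsa, X-linked members, and the highest and lowest of each other list. Other members below input are named without values. Some single promoters are not reported here.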

Additional observations from a re-analysis of the deposited data

How the results depend on the processing

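The 7 members above input were 3 by DESeq2 and 2 to 9 when 1 library was left out (2 without the ChIP library and 4 without the input library of v134). Rpl10l and Rpl22 passed in every alternative in which they were tested. The 21 members below input were 9 with the replicate block (8.3% of all promoters). They were 8 of the 62 tested when at least 20 reads were required in each input (where 12.0% of all 13993 promoters were below). Their number was lower whenever 1 library was left out. DESeq2 called 0 below input (0.11% of all promoters), where edgeR called 21. It gave no adjusted p for 58 of the 83 members and for 17372 of all 26354 promoters. At an unadjusted DESeq2 p under 0.05, 10 members were below input, and the share of all promoters there was not counted. The block, the pairing of each ChIP with its input, left the 7 above input as they were. The 9 members in the top quartile were 15 with the GC trend removed, and 6 and 11 by 1 experiment alone. The median percentile was 33.2 to 45.8 by 1 experiment alone, and the members' pooled ratio over all others 0.564 to 0.765. With paralogues left out, an alternative added after seeing the data, 5 members (6.49%) were above and 21 (27.3%) below input. Removing the GC trend has no form for pooled reads and was not run there, and mitochondrial promoters were already left out of that ratio. With these moved into the others, also added after seeing the data, it was 0.742. The cause of these changes was not tested. Few ChIP reads limit the test, most of all below input.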
